A study of Homo sapiens with 9 samples.

Results

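The genes described here encode the nuclear share of the mitochondrial respiratory chain. They were chosen by symbol: names starting with NDUFA, NDUFB, NDUFC, NDUFS, NDUFV, UQCR, ATP5 or COX4 to COX8, with SDHA to SDHD and CYC1, leaving out the NDUFAF assembly factors and hyphenated names. The rule found 87 of the 16630 genes in the deposited table. Of these, 82 could be tested, that is, they had a value in all 9 libraries and a mean of at least 0.5 FPKM, among 13273 such genes in all. FPKM counts RNA fragments per transcript length and library total, so levels can be compared between genes. The 5 left out were ATP5EP2 and ATP5L2, which lacked values, and UQCRHL, UQCRBP1 and COX6B2, which were too low. Of the 82, 79 encode structural subunits or their isoforms. ATP5S, ATP5SL and COX4NB match by prefix but are no subunits, and are named as such where they appear.

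The respiratory chain passes electrons from NADH through complex I, or from succinate through complex II, to complex III and then by cytochrome c to complex IV, where oxygen is reduced. Complexes I, III and IV pump protons across the inner mitochondrial membrane, and complex V (ATP synthase) uses the returning protons to make ATP. Most subunits are encoded in the nucleus. The others come from mitochondrial DNA, and those genes were not analysed here.

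RNA was sequenced from H1650, an established human non-small cell lung cancer line, in 9 libraries, 3 in each group, on day 3 after transfection with 20 nM siRNA and Lipofectamine RNAiMAX. The siMENA11a cells received a mix of 3 siRNAs directed at exon 11a of ENAH, the gene of the actin regulator hMENA. The siMENA cells received a siGENOME SMARTpool against human ENAH, labelled hMENA(t), and the control cells a non-targeting ON-TARGETplus pool. All cells were thus lipofected with siRNA, all came from the same line, and no untransfected cells were among the libraries. The submitters call the 3 libraries of a group biological replicates. The p-values rest on the spread within groups, pooled over all 3 groups and drawn toward that of genes of like level. Exon 11a is included in 1 of the 3 coding ENAH transcripts of the GENCODE basic set, so gene-level values cannot show which isoform was lost. It is shown because the siMENA11a siRNAs are directed at it. It lies on the minus strand at chr1:225504991-225505053 (GRCh38) and its 63 bases read as follows, with capitals marking a pair of overlapping 7-letter words of which 1 also occurs in COX5A and NDUFS7.
ENAH exon 11a: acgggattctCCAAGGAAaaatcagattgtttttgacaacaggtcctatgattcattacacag

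ENAH stood at 9.98, 11.0 and 10.3 FPKM in the siMENA11a libraries, 4.43, 5.79 and 5.57 in siMENA and 26.1, 30.04 and 26.1 in control, so the 3 groups did not overlap. The summed level of 6 epithelial markers (EPCAM, CDH1, KRT7, KRT8, KRT18, KRT19) was 3939 to 4425 FPKM in siMENA11a, 4693 to 4893 in siMENA and 4820 to 5135 in control. Of these, CDH1, KRT8 and KRT18 were called lower in siMENA11a than in control (-0.42, -0.35 and -0.40). EPCAM, KRT7 and KRT19 did not pass (0.09, 0.07 and -0.10). NKX2-1 and NAPSA were not analysed here. Summed fibroblast markers (COL1A1, COL1A2, COL3A1, FAP) gave 8.78 to 13.1 FPKM in siMENA11a, 6.38 to 10.9 in siMENA and 5.41 to 9.69 in control, mostly from FAP. FAP was called higher in siMENA11a than in control (0.60, limma adjusted p 0.0165), and COL3A1 did not pass (-0.15). Leukocyte markers (CD68, LYZ) gave 11.1 to 13.0 FPKM in siMENA11a, 10.5 to 11.9 in siMENA and 11.4 to 13.8 in control, nearly all from CD68. Endothelial markers (PECAM1, VWF, CDH5) stayed at or below 0.491 FPKM in sum. The part of the lower epithelial sum in the results on siMENA11a was not tested. In bulk RNA, fewer cells with a given RNA and less of it per cell cannot be told apart.

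The respiratory genes were among the abundant RNAs of these cells. Their median level over the 9 libraries was 115 FPKM, against 10.8 FPKM over all tested genes, and 67 of the 82 stood at 50 FPKM or more. The highest was ATP5E, the epsilon subunit of the ATP synthase head, at 993 FPKM, and the lowest COX7A1, an isoform of a small complex IV subunit known from heart and skeletal muscle, at 0.695 FPKM. Within complex I, NDUFAB1, the mitochondrial acyl carrier protein, was the highest at 301 FPKM and NDUFA10 the lowest at 23.6. In complex II the membrane anchors SDHD, at 124 FPKM, and SDHC, at 38.1, were the ends of the range. In complex III these were UQCRH, the hinge protein beside cytochrome c1, at 301 FPKM and UQCR11 at 24.8. COX7C led complex IV at 712 FPKM, and ATP5D, the delta subunit of the head, was the lowest of complex V at 21.9. In 15 of the 82 genes, SDHD, COX7C, CYC1, UQCRC1, NDUFA3, NDUFB9 and NDUFV2 among them, all 9 values had lost their decimal point, so the division by 1000 that set their levels could not be checked against other values of the gene.

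After siMENA11a, some genes of every complex were called lower than in control. Of the 82 genes, 20 were lower (24.4%) and 1 was higher in siMENA11a than in control, where 11.3% of all tested genes were called lower and 8.16% higher (limma on log2(FPKM + 1), adjusted p under 0.05 over all tested genes). The difference was negative for 74 of the 82, against 6930 of all 13273 tested genes. Its median was -0.15 on the log2 scale, against -0.01 over all tested genes. The lower calls were spread over all 5 complexes. They made up 27.0% of the genes in complex I, 25.0% in II, 33.3% in III, 21.4% in IV and 13.3% in V. Neither direction passed for 61 of the 82 members, and several calls depended on single libraries. Without control replicate 3, 11 members were lower, and without control replicate 1, 13 members. The number of calls over all tested genes also moved when a library was left out, as given below. These member counts therefore do not show that members depend on single libraries more than other genes. By library, the members' median difference from the control mean was -0.12, -0.23 and -0.06 in siMENA11a replicates 1, 2 and 3, and siMENA11a replicate 2 was the lowest of its group for 66 of the 82 members. Without that library 16 members were lower and the median was -0.08.

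Summed over its subunits, complex I RNA came to 4075, 3834 and 4351 FPKM in the siMENA11a libraries, 4986, 4799 and 4736 FPKM in siMENA and 4516, 4431 and 4406 FPKM in control. The mean sum was thus 91.8% of control in siMENA11a and 108.8% in siMENA. In siMENA11a the mean sum was 90.3% of control for complex II, 84.7% for complex III, 90.2% for complex IV and 92.2% for complex V. In siMENA it was 109.7%, 101.4%, 105.8% and 105.1% of control for complexes II, III, IV and V. For each complex, every siMENA11a library lay below every control library. Every siMENA library lay above them for complexes I, II, IV and V, whereas complex III overlapped, with 1488, 1420 and 1411 FPKM in siMENA against 1432, 1422 and 1405 FPKM in control. The most abundant subunits weigh most in such sums.

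**Figure D1:**
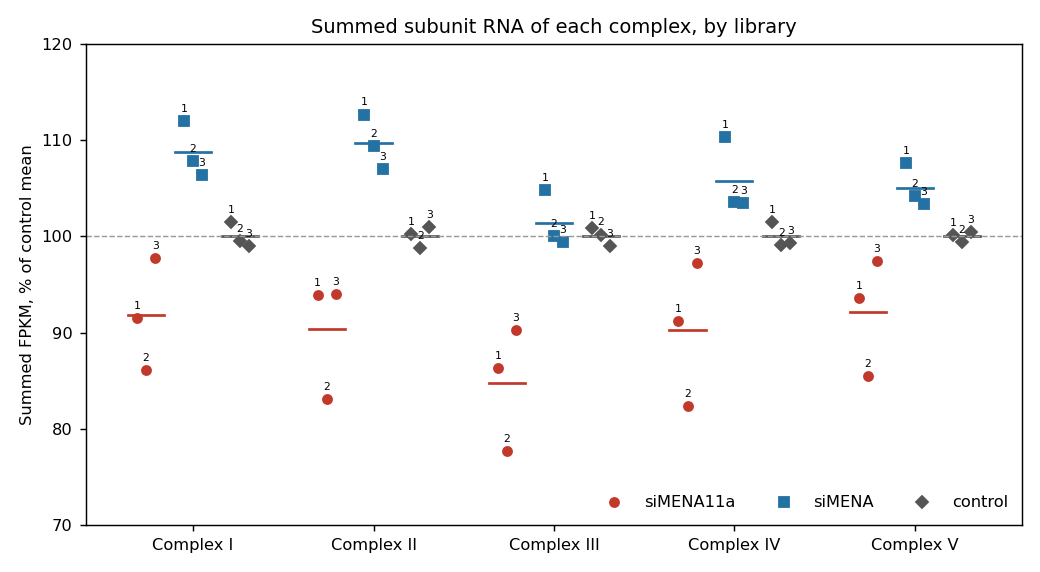
Summed FPKM of the 37 complex I, 4 complex II, 9 complex III, 14 complex IV and 15 complex V genes in each library, as percent of the control mean; points are libraries with their replicate number and bars are group means. The siMENA11a libraries sit below 100 in every complex, with replicate 2 the lowest, and the siMENA libraries mostly sit above it.

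The core of complex I comprises the subunits that carry electrons from NADH over a flavin and iron-sulfur clusters to ubiquinone. Of its 7 nuclear genes, 5 were lower in siMENA11a than in control and all 7 differences were negative, with a median of -0.26. NDUFS7, which holds the last iron-sulfur cluster before ubiquinone, had 27.2, 18.1 and 25.2 FPKM in siMENA11a, 38.3, 36.8 and 39.7 in siMENA and 36.2, 33.3 and 32.2 in control. No siMENA11a library reached the lowest control library, and replicate 2 was well below the others. The log2 difference from control was -0.53 (SE 0.12, limma adjusted p 0.0153), and without control replicate 1 the adjusted p was 0.0528.

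NDUFS3, part of the arm that leads to the ubiquinone site, had 64.7, 53.8 and 62.4 FPKM in siMENA11a, 88.0, 78.6 and 84.8 in siMENA and 73.1, 74.6 and 78.6 in control, again without overlap between siMENA11a and control. Its log2 difference from control was -0.32 (SE 0.07, limma adjusted p 0.0147, and 0.0601 without control replicate 3). Core genes called lower also included NDUFS8, an iron-sulfur subunit, at -0.26, and NDUFV1, which binds NADH and the flavin, at -0.18; they lost the call in 4 and 8 of 17 alternative settings. NDUFS1 and NDUFV2, the iron-sulfur subunits next to NDUFV1, gave -0.10 and -0.01 and did not pass. Without control replicate 1 only NDUFS3, and without control replicate 3 only NDUFS7, remained of the 5 core calls.

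The accessory subunits surround the core without carrying electrons. On the matrix arm 3 of 9 were lower in siMENA11a than in control, led by NDUFA9, which sits at the junction of the arms and binds NADPH. NDUFA9 had 43.8, 39.7 and 47.4 FPKM in siMENA11a, 64.7, 67.4 and 58.7 in siMENA and 53.8, 60.2 and 58.3 in control. Every siMENA11a library was below every control library, with a log2 difference of -0.39 (SE 0.08, limma adjusted p 0.00753). NDUFA6, a member of the LYR family of small mitochondrial proteins, had a log2 difference of -0.25 (limma adjusted p 0.00986), and the zinc-binding NDUFS6 one of -0.25 (limma adjusted p 0.027), a call lost in 6 of 17 settings with adjusted p of 0.0593 to 0.087. In contrast, NDUFA5 had 63.5, 61.1 and 70.4 FPKM in siMENA11a against 58.9, 56.0 and 57.2 in control, the only complex I gene with every siMENA11a library above control, though its limma adjusted p was 0.0666. On the membrane arm 2 of 20 were lower (10.0%), a share close to the 11.3% of all tested genes. They were NDUFB10 at -0.24 and NDUFS5 at -0.21, both small proteins with paired cysteines facing the intermembrane space. These 2 calls were lost in 5 and 11 of 17 settings. The membrane-arm median was -0.13, and 19 of the 20 differences were negative.

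Complex II, which is also the succinate dehydrogenase of the TCA cycle, had 1 of 4 genes lower. SDHA, its flavin-carrying catalytic subunit, stood at 74.9, 71.3 and 77.9 FPKM in siMENA11a, 98.9, 99.9 and 101 in siMENA and 94.6, 84.5 and 89.2 in control, so that the siMENA11a libraries were the lowest of all 9. Its log2 difference from control was -0.26 (SE 0.06, limma adjusted p 0.0121). SDHB, the iron-sulfur subunit, also lay below control in every siMENA11a library (86.5, 74.0 and 82.6 FPKM in siMENA11a, 88.6, 95.8 and 91.4 in control), with a difference of -0.18 that did not pass (limma adjusted p 0.0763). The anchors SDHC and SDHD overlapped control.

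In complex III, 3 of 9 genes were lower and all 9 differences were negative. CYC1, cytochrome c1, which hands electrons to cytochrome c, had 177, 163 and 182 FPKM in siMENA11a, 267, 252 and 253 in siMENA and 229, 236 and 227 in control. The 3 groups did not overlap, with siMENA11a the lowest and siMENA the highest. The log2 difference between siMENA11a and control was -0.41 (SE 0.06, limma adjusted p 0.00154), and the call was kept in all 17 alternative settings.

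UQCRH had 271, 247 and 300.3 FPKM in siMENA11a, 289, 289.6 and 287 in siMENA and 345, 339 and 341 in control, and was the only member called lower in both comparisons with control, which share the control libraries. Its log2 difference from control was -0.33 in siMENA11a (SE 0.07, limma adjusted p 0.0111) and -0.24 in siMENA (SE 0.07, limma adjusted p 0.0388). The siMENA call was lost in 7 of 17 settings, each without 1 library. UQCRHL, a near-identical copy of UQCRH, was listed at 0.118 to 0.768 FPKM, and how reads were shared between the 2 copies is not given in the sources used here. UQCRC1, a core protein of the matrix side, was lower, with a log2 difference of -0.21 (limma adjusted p 0.0119, and 0.053 without control replicate 3). Its partner UQCRC2 had -0.18 and UQCRFS1, the Rieske iron-sulfur protein, -0.17; neither passed.

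Complex IV held the largest fall of any member. COX5A, a nuclear subunit on the matrix side that joins the complex early in its assembly together with COX4I1, had 93.8, 71.4 and 94.7 FPKM in siMENA11a, 146, 134 and 132 in siMENA and 129.7, 129 and 135 in control. The siMENA11a libraries were far below the other 6, which overlapped each other. The log2 difference between siMENA11a and control was -0.60 (SE 0.10, limma adjusted p 0.00304), and the adjusted p stayed between 0.00121 and 0.016 over 17 settings. COX4I1, the general form of the subunit that binds next to COX5A, had 244, 232 and 255 FPKM in siMENA11a, 291, 281 and 295 in siMENA and 298, 290.2 and 291 in control, a log2 difference from control of -0.27 (SE 0.06, limma adjusted p 0.00998). COX8A, a small subunit in the membrane, had 440.4, 459 and 468 FPKM in siMENA11a and 521, 601 and 554 in control, a difference of -0.29 (SE 0.08, limma adjusted p 0.025), lost in 4 of 17 settings with adjusted p of 0.0551 to 0.0866. The other 8 of the 11 main subunit genes did not pass. Among them COX7C, at 749, 606 and 766 FPKM in siMENA11a and 714, 624 and 676 in control, was the only one with a positive difference (0.07).

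The 3 tested complex IV genes grouped here as isoforms or relatives of main subunits had positive differences in siMENA11a. COX7A1 and NDUFA4L2 averaged only 0.695 and 0.989 FPKM over the 9 libraries. COX7A2L overlapped control, with a difference of 0.04 (limma adjusted p 0.669). COX7A1 was the only member called higher than control, at 0.843, 0.761 and 1.46 FPKM in siMENA11a, 0.789, 0.444 and 0.808 in siMENA and 0.322, 0.425 and 0.404 in control. Its log2 difference of 0.53 (SE 0.14, limma adjusted p 0.0263) is on the log2(FPKM + 1) scale, which understates changes at such low levels, and the call was lost when any 1 of the control replicates or siMENA11a replicate 3 was left out (adjusted p 0.0566 to 0.0756). COX7A2, the form of the same subunit found in most tissues, had 159, 137 and 160.3 FPKM in siMENA11a and 163, 169 and 159 in control. The groups overlapped and its difference was negative (-0.11). NDUFA4L2, a relative of NDUFA4 known as a hypoxia-induced gene, had 1.35, 1.52 and 0.955 FPKM in siMENA11a and 0.512, 1.19 and 0.950 in control, with overlap and no call (difference 0.28). COX6B2, the testis form of COX6B1, stayed at 0.0497 to 0.367 FPKM. COX4I2, COX6A2, COX7B2 and COX8C were not analysed here.

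In complex V, 2 of 15 genes were lower (13.3%), a share close to the 11.3% of all tested genes. All 15 differences were negative. ATP5G1, one of 3 genes for the same ring-forming c subunit, had 83.7, 83.7 and 87.7 FPKM in siMENA11a, 109, 100.1 and 109 in siMENA and 106, 107 and 112 in control. The siMENA11a libraries were tightly grouped below all others, with a log2 difference from control of -0.35 (SE 0.05, limma adjusted p 0.00217). Its fellow genes ATP5G2 and ATP5G3, whose RNAs differ although the mature protein is the same, had differences of -0.01 and -0.22 and overlapped control. ATP5O, the peripheral stalk protein OSCP that holds the head in place, had 173, 158 and 162 FPKM in siMENA11a, 243, 225 and 223 in siMENA and 208, 197 and 213 in control. As with CYC1, the 3 groups did not overlap, and the log2 difference between siMENA11a and control was -0.32 (SE 0.06, limma adjusted p 0.00625). The catalytic beta subunit ATP5B had 369.7, 348 and 364 FPKM in siMENA11a, 476, 461 and 436 in siMENA and 390.0, 405 and 419.6 in control; its difference from control of -0.17 did not pass (limma adjusted p 0.0896). For ATP5E, at 942, 832 and 1074 FPKM in siMENA11a and 971, 1023 and 989 in control, the groups overlapped. It also has a near-identical copy, ATP5EP2, so its level is uncertain by what the copy took. ATP5SL, which has a subunit-like name but acts in complex I assembly, was also called lower (-0.25, limma adjusted p 0.0144, and 0.0544 without siMENA11a replicate 1).

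**Figure D2:**
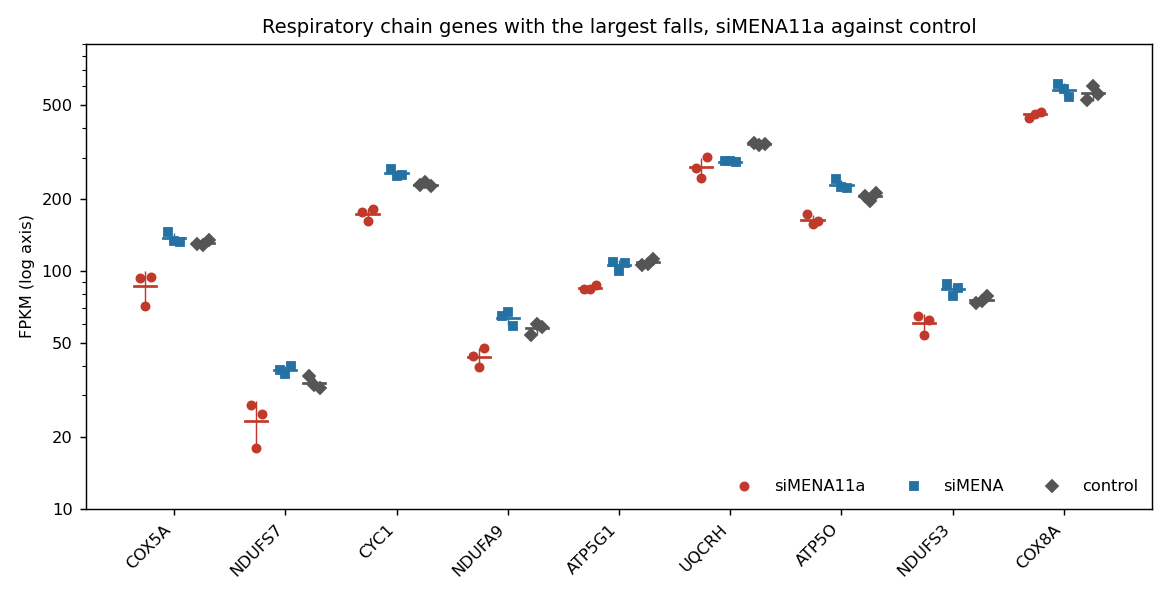
FPKM in each library (log axis) of the 9 respiratory genes with the largest called falls in siMENA11a against control; points are libraries, horizontal bars group means and vertical lines SD (n = 3). The siMENA11a libraries lie below all control libraries for each gene, and below all siMENA libraries for all but UQCRH. The genes were picked by their falls in these same libraries, so the gap to control follows in part from that choice.

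**Figure D3:**
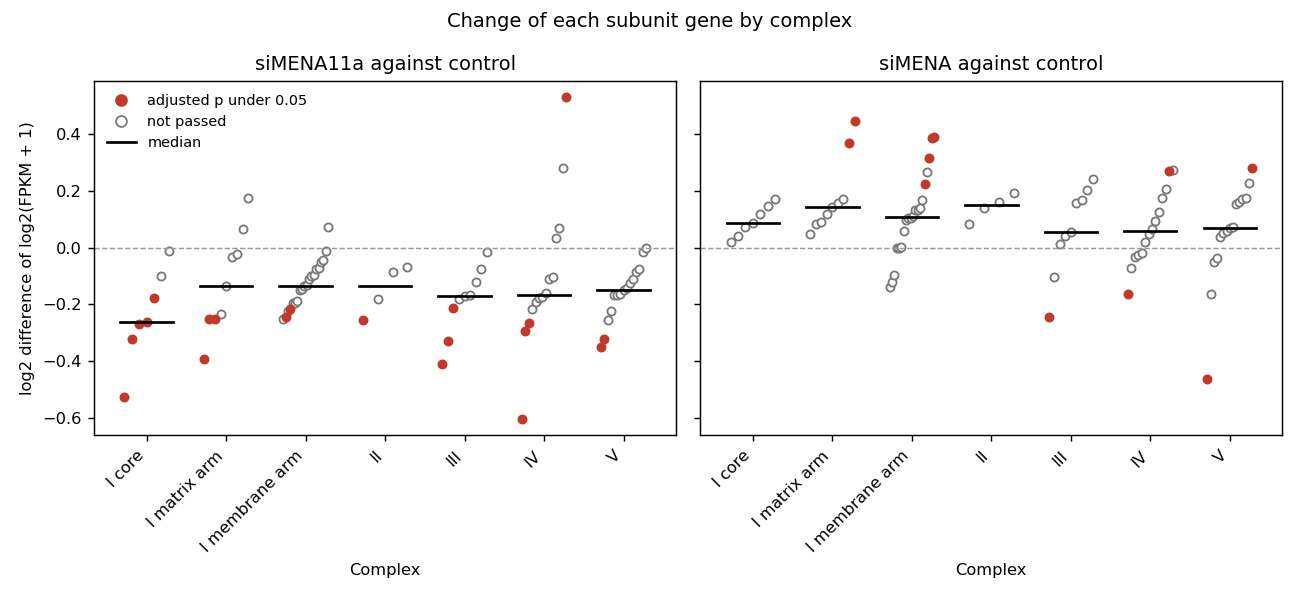
log2 difference of each structural gene except NDUFAB1 from control in siMENA11a (left) and siMENA (right), by complex and, for complex I, by part. Filled points passed (limma adjusted p under 0.05) and lines are medians. Core genes of complex I have the lowest median in siMENA11a, -0.26, and the medians of all parts are positive in siMENA.

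COX5A and NDUFS7, the members with the largest falls, share a short sequence feature with the siRNA target. An earlier analysis of these same data had picked out the 7-letter words CCAAGGA and CAAGGAA of exon 11a, so their presence among lower genes is not independent of the data: 37.8% of all genes lower in siMENA11a had a word in the 3′ UTR (GENCODE annotation, GRCh38), against 25.6% of all 12255 tested genes with a 3′ UTR. Among the respiratory genes 14 of 82 had one (17.1%), and of the 20 lower members only COX5A and NDUFS7 had one, as did 12 of the other 62. The 2 sites, with the word in capitals, are from base 20 of the COX5A 3′ UTR (chromosome 15) and base 256 of the NDUFS7 3′ UTR (chromosome 19).
COX5A: gatgggcttccCCAAGGAtttattgacat
NDUFS7: gttcctgggggCCAAGGAcactgtcccgc
The median difference from control was -0.12 over the 14 members with a word and -0.16 over the 68 without. The sequences of the siRNAs themselves were not used here.

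The promoters of respiratory genes are known for sites of NRF1, of ETS-family factors such as GABP, and of YY1. Their cores were searched on both strands, from 250 bases before to 50 bases after the RefSeq start (GRCh38.p14), as GCATGCG for NRF1, CCGGAAG for the ETS family and AAGATGG for YY1. Over all 27305 RefSeq promoters, 4.13% held the NRF1 core, 10.7% the ETS core and 6.06% the YY1 core; of the 10199 tested genes (of 13273) with an entry, 6.29%, 19.5% and 7.51% did. Of the 79 structural genes 63 had an entry, and of these 13 held the NRF1 core, 19 the ETS core and 16 the YY1 core. At least 1 of the 3 cores was in 10 of the 16 lower in siMENA11a and in 26 of the other 47. The promoters of NDUFS7, NDUFA9 and UQCRH are shown as the first 3 among the largest falls in siMENA11a that had an entry and a core; COX5A and ATP5G1 had an entry without one. All 3 are on the plus strand, at chr19:1383657-1383956, chr12:4648864-4649163 and chr1:46303448-46303747, with matches in capitals.
NDUFS7: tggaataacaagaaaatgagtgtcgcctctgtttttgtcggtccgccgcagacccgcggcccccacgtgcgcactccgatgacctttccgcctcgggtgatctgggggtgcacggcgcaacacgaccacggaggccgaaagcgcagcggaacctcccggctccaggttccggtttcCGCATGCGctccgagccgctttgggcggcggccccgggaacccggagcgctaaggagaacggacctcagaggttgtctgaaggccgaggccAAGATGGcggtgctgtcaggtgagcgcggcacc
NDUFA9: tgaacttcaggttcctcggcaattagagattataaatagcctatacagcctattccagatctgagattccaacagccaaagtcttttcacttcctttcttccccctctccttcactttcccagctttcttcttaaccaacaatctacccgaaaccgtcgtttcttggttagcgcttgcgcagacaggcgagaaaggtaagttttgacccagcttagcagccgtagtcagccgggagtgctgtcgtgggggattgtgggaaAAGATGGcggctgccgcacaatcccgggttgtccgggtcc
UQCRH: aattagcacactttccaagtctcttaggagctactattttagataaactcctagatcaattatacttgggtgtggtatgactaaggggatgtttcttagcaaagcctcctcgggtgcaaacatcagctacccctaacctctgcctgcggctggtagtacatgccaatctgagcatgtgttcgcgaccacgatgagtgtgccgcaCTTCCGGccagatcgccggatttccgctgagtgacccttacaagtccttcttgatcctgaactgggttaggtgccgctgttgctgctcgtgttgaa
NDUFS7 holds NRF1 cores on both strands that overlap in the first capital run, and a YY1 core in the other. NDUFA9 holds a YY1 core and UQCRH an ETS core on the opposite strand. A match describes the letters only, and no binding was measured.

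After siMENA, few respiratory genes passed and most differences were small and positive. Of the 82, 8 were higher (9.76%) and 3 lower (3.66%) in siMENA than in control, where 10.3% of all tested genes were called higher and 8.24% lower (limma adjusted p under 0.05). The share of members called higher was thus close to that over all genes. The difference was positive for 65 of the 82, against 7637 of all 13273 tested genes. Its median was 0.10 on the log2 scale, against 0.04 over all tested genes. The library medians were 0.15, 0.09 and 0.07 in siMENA replicates 1, 2 and 3. Without siMENA replicate 1, 5 members were higher. The count of lower members was 1 when any single control or siMENA library, or siMENA11a replicate 1, was left out. Calls over all tested genes also moved between such fits, as given below.

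Of the 8 higher genes, 6 encode accessory subunits of complex I, to which 37 of the 82 members belong. These 6 were 16.2% of its genes, where 10.3% of all tested genes were called higher. NDUFV3, an accessory subunit at the NADH-binding tip, had 46.1, 48.5 and 43.9 FPKM in siMENA, 33.3, 28.2 and 30.1 in siMENA11a and 35.1, 32.8 and 32.8 in control. Every siMENA library was above every other library, with a log2 difference from control of 0.45 (SE 0.07, limma adjusted p 0.00218). NDUFA12, a matrix-arm subunit related to an assembly factor, had 106, 104 and 95.0 FPKM in siMENA and 78.0, 80.0 and 77.2 in control, a difference of 0.37 (SE 0.06, limma adjusted p 0.00473). On the membrane arm NDUFA3, with a single membrane helix, had 260.1, 239.5 and 243 FPKM in siMENA and 207, 176 and 184 in control, a difference of 0.39 (SE 0.07, limma adjusted p 0.00515). NDUFB9, another LYR protein, had 353, 328 and 309 FPKM in siMENA and 242, 258 and 256 in control, a difference of 0.39 (SE 0.06, limma adjusted p 0.00311). In all these genes, which were picked by their calls in these libraries, the siMENA libraries stood apart from control without overlap. NDUFA8 at 0.32 and NDUFB8 at 0.22 also passed, but lost the call in 5 of 18 and 7 of 17 settings. The 7 core genes of complex I had differences of 0.02 to 0.17, not called.

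Outside complex I, 2 genes were higher in siMENA. ATP5J2, subunit f of the ATP synthase membrane part, had 303, 296 and 292 FPKM in siMENA and 246, 248 and 240.4 in control, a difference of 0.28 (SE 0.05, limma adjusted p 0.00521). NDUFA4, named for complex I but now known as a complex IV subunit, had 146, 137 and 123 FPKM in siMENA and 108, 119 and 109 in control, a difference of 0.27 (SE 0.07, limma adjusted p 0.0316) that was lost in 5 of 17 settings. For the 8 genes higher in siMENA, the differences of siMENA11a from the same control libraries were -0.14 (NDUFV3), -0.01 (NDUFA3), -0.15 (NDUFB9), 0.07 (NDUFA12), -0.25 (NDUFA8), -0.14 (ATP5J2), -0.18 (NDUFA4) and -0.10 (NDUFB8), none of which passed.

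The 3 genes lower in siMENA included ATP5J, the coupling factor F6 of the ATP synthase stalk. It had 65.6, 62.7 and 70.6 FPKM in siMENA, 94.0, 78.0 and 80.8 in siMENA11a and 91.5, 88.8 and 94.8 in control. The siMENA libraries were below all other libraries, with a log2 difference from control of -0.46 (SE 0.07, limma adjusted p 0.00314), called in all 18 alternative settings. Its stalk partners ATP5O, ATP5F1 and ATP5H had differences of 0.16, 0.07 and 0.15. COX7A2L, a relative of COX7A2 known for joining complexes III and IV into supercomplexes, had 90.1, 94.3 and 86.1 FPKM in siMENA and 103, 100.2 and 99.7 in control, a difference of -0.16 (SE 0.05, limma adjusted p 0.0489), and the call was lost in 10 of 17 settings, among them the fit with a replicate block. UQCRH was the remaining one. Words CAGAATA and AGAATAA, which the same earlier analysis had tied to genes lower in siMENA, were in the 3′ UTRs of 54.4% of all genes lower in siMENA and 28.4% of all tested genes, and in those of ATP5J and UQCRH among the 3 lower members and 13 of all 82.

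**Figure D4:**
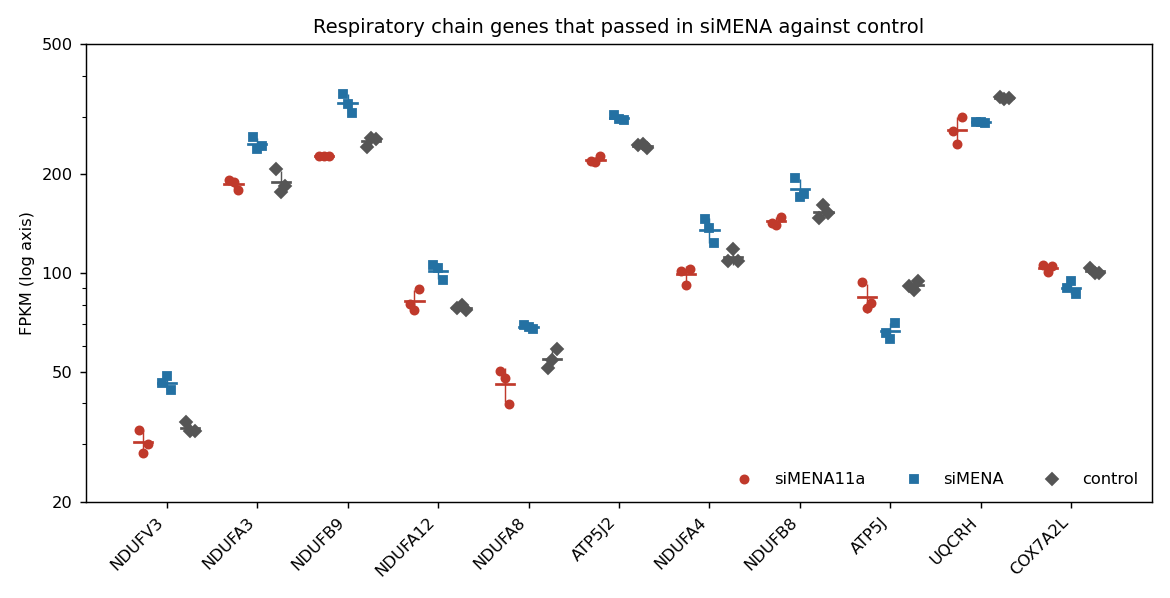
FPKM in each library (log axis) of the 8 respiratory genes called higher and the 3 called lower (ATP5J, UQCRH, COX7A2L) in siMENA against control; points are libraries, horizontal bars group means and vertical lines SD (n = 3). The siMENA libraries stand apart from control for each gene, above it for 8 and below it for 3. The genes were picked by their calls in these same libraries, so the gap follows in part from that choice.

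More members passed between the 2 knockdowns than in either comparison with control. Of the 82, 48 were lower (58.5%) and 2 higher (2.44%) in siMENA11a than in siMENA, where 22.2% of all tested genes were called lower and 14.4% higher (limma adjusted p under 0.05). The median difference was -0.25 on the log2 scale, against -0.05 over all tested genes. The lower genes made up 24 of 37 in complex I, 3 of 4 in complex II, 5 of 9 in complex III, 7 of 14 in complex IV and 8 of 15 in complex V, besides ATP5SL. When libraries were rescaled by median ratios, which moved the split of all calls in this comparison to 50.1% lower, against 60.6% lower as deposited, 40 members were lower and 2 higher.

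The largest of these differences were in genes already described. NDUFS7 had a log2 difference between siMENA11a and siMENA of -0.70 (SE 0.12, limma adjusted p 0.00187), COX5A one of -0.67 (SE 0.10, limma adjusted p 0.000694), and NDUFV3 one of -0.58 (SE 0.07, limma adjusted p 0.00018). For NDUFV3 this sums a siMENA level above control and a siMENA11a level that overlapped control. NDUFA8, CYC1, NDUFA9, NDUFB9, ATP5O and NDUFS3 followed, between -0.57 and -0.47. NDUFB5, a membrane-arm subunit of complex I, passed in this comparison alone, with 99.3, 82.3 and 113 FPKM in siMENA11a, 139, 128 and 137 in siMENA and 116, 105 and 114 in control. Its siMENA11a libraries overlapped control while the siMENA libraries were above both, and the difference between the knockdowns was -0.46 (SE 0.10, limma adjusted p 0.0054). The 2 higher genes were ATP5J (0.34, limma adjusted p 0.0063) and COX7A2L (0.20, limma adjusted p 0.0123), both lower than control in siMENA.

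Transcript length, abundance and GC content are given as values whose part in the results was not tested. The members' transcripts are short, with a median of 1260 bases against 3380 over all tested genes with a transcript, and 32 of the 82 are under 1000 bases. Among tested genes under 1000 bases that are not respiratory genes, 17.5% of 446 were lower in siMENA11a than in control, and 21.9% of the 196 that also reached 50 FPKM. Among all 1707 tested genes at 50 FPKM or more, 17.05% were lower and 9.02% higher, with a median of -0.04. The 20 lower members had a median GC content of 54.3%, the other 62 members one of 46.4%. In a fit that corrected each library for transcript length and GC content, 24 members were lower in siMENA11a, with a median of -0.14. Of the 20 calls, NDUFS8 and NDUFV1 were lost. The share of all genes called lower in that fit is not given here. Values of 69 of the 82 members include at least 1 that had lost its decimal point and was divided by 1000. Of the 13 members without such a value, 2 were lower and 1 higher in siMENA11a, where 11.3% of all tested genes were lower and 8.16% higher. With 13 members, such shares cannot be told apart.

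Genes that build or feed the respiratory chain gave mixed results. Over all tested genes, 11.3% were lower and 8.16% higher in siMENA11a than in control. Among 50 tested assembly factors of the 5 complexes, 5 were lower (10.0%) and 1 higher (2.0%), with a median of -0.07. Their share of lower genes was thus not above that of all tested genes. COX16, an assembly factor of complex IV, was lower, with a log2 difference of -0.41, and HIGD1A, a hypoxia-induced protein that interacts with complex IV, was higher, with one of 0.47 (limma adjusted p 0.00139 and 0.000263). HIGD1A was lower in siMENA than in control, with a log2 difference of -0.46 (limma adjusted p 0.000249). Among 18 TCA cycle and pyruvate dehydrogenase genes, 5 were lower (27.8%) and 1 higher (5.56%) in siMENA11a than in control. Among the lower ones was IDH2, the mitochondrial NADP-dependent isocitrate dehydrogenase, at -0.47 (limma adjusted p 0.000526). Of 16 glycolysis genes, 7 had negative and 9 positive differences in that comparison, not called.

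**Figure D5:**
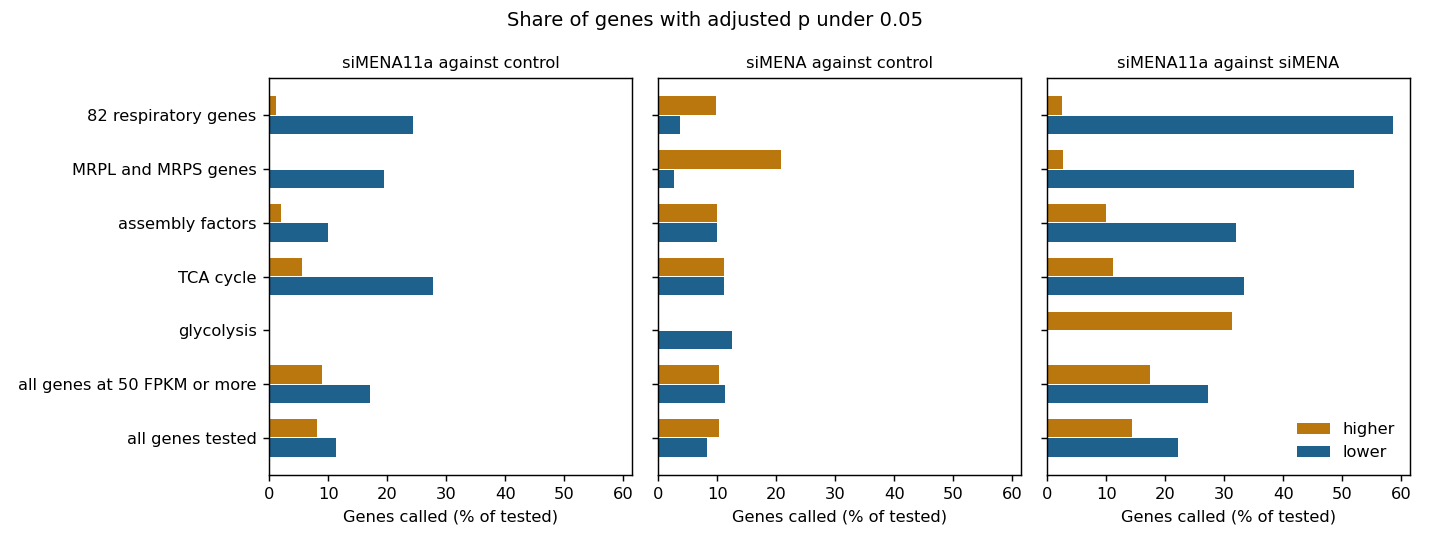
Share of tested genes called higher and lower (limma adjusted p under 0.05) among the 82 respiratory genes, other metabolic lists, abundant genes and all tested genes, in the 3 comparisons. Respiratory genes show 24.4% and 58.5% lower in siMENA11a against control and against siMENA, above the shares of all tested genes, 11.3% and 22.2%. The MRPL and MRPS genes show 19.5% and 51.9% lower in these comparisons, and the TCA cycle genes 27.8% and 33.3%.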

How the data were processed

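The 9 H1650 libraries, 3 each for siMENA11a, siMENA and control, were grouped by the sample labels. Per the labels' protocols, total RNA was depleted of ribosomal RNA and read in stranded paired-end libraries. The authors deposited 1 table of FPKM values for 16630 genes. The submitters' processing notes name the build hg19, while no aligner, counting tool or gene annotation is named in them; they are not given in the sources used. Without counts the depth of a library is unknown, and no floor or counting interval is given. A search of the steps between low values gave the other libraries 1.15 to 1.58 times the depth of control replicate 1. Only depths above that of control replicate 1 were searched, so it could not show a shallower library. The peaks behind these ratios stood only 1.54 to 4.83 times above their surroundings. Control replicate 1 had 0 missing values and the others 411 to 592 each. The FPKM sums ran from 558754 to 592930, of which RPPH1 and RMRP took 10.7% to 14.6%.

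Some FPKM values, as deposited, lack their decimal point. Of 11543 whole numbers, 16 that were close to the other values of their gene were kept, and 11524 (7.91% of all values) were divided by 1000. In genes with other decimal values, the divided ones had stood a median of 1025-fold above the rest; 2102 divided values lie in 237 genes with no decimal value, where no such comparison could be made. A further 1286 genes lacked a value in some library and were not used.

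The 13273 genes averaging 0.5 FPKM or more were compared as log2(FPKM + 1) with limma 3.58.1 in R 4.3.3, in 1 fit over the 9 libraries with group as the only term, a mean-variance trend and 6 residual degrees of freedom. P-values were adjusted by Benjamini-Hochberg over all tested genes within each comparison, with a threshold of 0.05. The code was tested on simulated data. The members and lists were chosen with earlier results of these data known, so no test of a list was made. Named genes were ENAH, up to 10 called members with the largest rise or fall per comparison and a mean of at least 1 FPKM, complex IV and UQCRH isoform pairs, the highest and lowest gene of each complex, and up to 3 called genes of a pathway list. Members outside that rule, such as NDUFA5, were named for their role or to account for a count, after their values were seen. Some genes that the rule names are not reported here.

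The replicate numbers are shared between groups. Deviations of same-numbered libraries correlated at 0.124, 0.378 and 0.196 between control and siMENA, at 0.206, 0.425 and -0.0302 between control and siMENA11a, and at 0.0863, 0.309 and 0.0203 between siMENA and siMENA11a (across 13273 genes, which are not independent). Every same-numbered correlation exceeded 0.1 only between control and siMENA. The replicate 2 libraries correlated at 0.309 to 0.425 across all 3 pairs of groups. COL3A1 stood at 1.90, 3.22 and 2.24 FPKM in replicate 2 of siMENA11a, siMENA and control, and at most 0.384 elsewhere. Some libraries with different numbers also correlated, such as control replicate 1 with siMENA11a replicate 3 at 0.321. The sample labels do not say what the numbers mark. The alternatives tried were another pseudocount, other filters on low values, other scalings, no trend, a replicate block, leaving out restored values or each library, and, chosen after seeing the data, a correction for GC content and length. Transcript lengths, GC content and 3′ UTRs came from GENCODE 29 (GRCh38) and promoters from RefSeq (GRCh38.p14), matched by symbol and used without hg19 coordinates.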

Additional observations from a re-analysis of the deposited data

How the results depend on the processing

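No member call changed sign under any setting run. Of 1406 repeats of the 82 calls of members (21, 11 and 50 in the 3 comparisons), 142 no longer passed, 49 of 359 in siMENA11a against control, 34 of 189 in siMENA against control and 59 of 858 in siMENA11a against siMENA; 27 of the 82 calls were lost at least once. Leaving out every gene with a restored value, which left 13 members, gave 1362 called genes and 2 lower members in siMENA11a against control, 1293 called genes, 1 higher and 1 lower member in siMENA against control, and 2716 called genes, 1 higher and 7 lower members in siMENA11a against siMENA; fewer genes were tested there. Without each library in turn, siMENA11a against control gave 1493 to 2483 called genes, 0 to 2 higher and 11 to 25 lower members and a median of -0.175 to -0.0848, and siMENA against control 1346 to 2902 called genes, 5 to 12 higher and 1 to 3 lower members. The single higher member in siMENA11a against control became 0 with a filter of 2 FPKM, which removes COX7A1, and 2 under quantile normalization or with the replicate block. Between the knockdowns, 39 to 55 members were lower when 1 library was left out. With the replicate block, siMENA against control had 10 higher and 2 lower members, with COX7A2L no longer called, NDUFC1 was no longer called between the knockdowns, and the block ended no other member call. Median-ratio scaling put the higher share of all calls in siMENA against control at 43.8%, quantile normalization at 48.0%, against 55.6% as deposited; for lower calls in siMENA11a against siMENA the shares were 50.1%, 50.9% and 60.6%. Unknown depth and 3 libraries a group limit what small differences can show.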

Other observations

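The mitochondrial ribosome makes the subunits encoded in mitochondrial DNA. Genes named MRPL or MRPS, which encode its proteins apart from the pseudogenes MRPL42P5 and MRPL45P2, gave 15 lower genes of 77 (19.5% lower, median -0.08) in siMENA11a against control, and 16 higher and 2 lower (median 0.13) in siMENA against control. Over all tested genes 11.3% were called lower in siMENA11a and 10.3% higher in siMENA. MRPL12, a large-subunit protein, averaged 27.0 ± 2.13 FPKM in siMENA11a, 47.4 ± 2.72 in siMENA and 41.7 ± 4.18 in control (SD, n = 3 each), a log2 difference of -0.61 between siMENA11a and control (limma adjusted p 0.00123). MRPL15 and MRPL37 followed at -0.56 and -0.54 (limma adjusted p 0.00117 and 0.000887). In siMENA the largest rises were MRPS31 at 0.40, MRPS9 at 0.34 and MRPL44 at 0.34 (limma adjusted p 0.00697, 0.00554 and 0.00325).

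The 17 tested regulators are transcription factors and coactivators of nuclear respiratory genes and of mitochondrial DNA. Of these, 1 was higher (5.88%) and 1 lower (5.88%) in siMENA11a than in control, against 8.16% and 11.3% of all tested genes. The higher one was ESRRA, an orphan nuclear receptor (0.25, limma adjusted p 0.0154). The lower one was TFB2M, which starts mitochondrial transcription (-0.25, limma adjusted p 0.0246). In siMENA, MYC averaged 36.8 ± 0.335 FPKM against 24.1 ± 1.37 in control (SD, n = 3 each), a difference of 0.59 (limma adjusted p 0.000522), and ESRRA and POLRMT were also higher (0.22 and 0.21, limma adjusted p 0.0264 and 0.0399). These were 3 of the 17 regulators (17.6%), where 10.3% of all tested genes were called higher. NRF1 and GABPA, whose promoter cores were searched, did not pass in either comparison, at -0.07 and -0.16 in siMENA11a and 0.01 and 0.13 in siMENA. Of the glycolysis genes, PGAM1, phosphoglycerate mutase, averaged 236 ± 9.63 FPKM in siMENA and 455 ± 33.4 in control (SD, n = 3 each), a difference of -0.94 (limma adjusted p 5.39e-05). Among 13 genes of cytochrome c, of ADP/ATP and phosphate carriers and of ubiquinone synthesis, 2 were lower in siMENA11a (15.4%, against 11.3% of all tested genes). They were the ADP/ATP carrier SLC25A5 at -0.24 and COQ7, an enzyme of ubiquinone synthesis, at -0.21 (limma adjusted p 0.0243 and 0.033).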
